A study of Mus musculus with 28 samples.

Results

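The 9 genes described here mark sensory neurons, the nerve cells that carry touch, pain and body position from the periphery. They were taken by name, as the rows of Pou4f1, Pou4f2, Ntrk2, Ntrk3, Ngfr, Ret, Prph, Avil and Runx3 among the 19421 genes of the table, and all 9 were found. The table covers 28 libraries from mouse embryonic stem cell (ESC) lines grown as embryoid bodies (EBs), which are floating aggregates of differentiating ESCs. Each line carries a doxycycline (Dox) inducible construct with 1 or more of the transcription factors (TFs) Atoh1, Gfi1 and Pou4f3 followed by the fluorescent protein mVenus, inserted into A2lox cells. The 7 lines are iAtoh1, iGfi1, iPou4f3, iG+A (Gfi1 and Atoh1), iG+P (Gfi1 and Pou4f3), iP+A (Pou4f3 and Atoh1) and iGPA (all of them).

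Dox libraries come from EBs given 2 µg/ml Dox for 48 h and sorted for mVenus+ cells at day 6. No Dox libraries come from whole untreated EBs of the same line at day 6, without a sort. Within a line the effect of Dox and that of the sort therefore cannot be told apart. Each of the 14 groups holds 2 libraries, and per the series record these were made from separate clones. In bulk RNA, fewer cells of a type and less RNA per cell cannot be told apart either.

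Sensory neurons arise from the neural crest and from cranial placodes. Pou4f1 (Brn3a), a POU homeodomain TF of sensory ganglia, acts there together with Isl1. Neurotrophins keep these neurons alive through Trk receptors, of which Ntrk2 (TrkB) binds brain-derived neurotrophic factor and Ntrk3 (TrkC) binds neurotrophin 3. Atoh1 is a basic helix-loop-helix TF that binds E-box motifs, and Pou4f3 is a close relative of Pou4f1 found in hair cells, the sound receptors of the inner ear.

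The transgenes followed the labels. Atoh1 lay between 12816.1 and 21241.9 normalized counts in the Dox libraries of the lines that carry it and at or below 120.1 in all No Dox libraries. Pou4f3 lay between 4693.6 and 19882.8 with Dox in its lines, and the lowest pair was iPou4f3 itself, at 4693.6 and 5381.3. Gfi1 lay between 8119.4 and 12486.9 with Dox in its lines. The factors also rose on the log2 scale in some lines whose construct lacks them. These were Atoh1 in iGfi1 (2.04) and iG+P (2.70), Pou4f3 in iAtoh1 (2.21) and iG+A (3.11), and Gfi1 in iPou4f3 (1.55) and iP+A (1.65). Their counts there were at or below 113. Without Dox, Atoh1 was 29.6 to 120.1 in lines that carry it and 3.02 to 13.3 in the others. Reads of a transgene and of the cell's own copy cannot be told apart. Estimated depth was 30.3 to 48.0 M reads per library. The sum of 10 pluripotency markers lay between 4010.3 and 13901.6 normalized counts in Dox and between 6215 and 32489.1 in No Dox libraries, and the 16 germ layer markers used as a check of day 6 EBs summed to 8217.7 to 62889.9 and 21848.3 to 59643.6. With Dox the germ layer sums were 8217.7 to 13497.4 in lines that carry Gfi1 and 31069.7 to 62889.9 in the others. The part of this split in the members' values was not tested.

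Rises and falls are reported where the adjusted p was under 0.05 (limma, Benjamini-Hochberg over 16837 tested genes) and the log2 fold change was 1.5 or more in size, which is called the threshold here. Levels are normalized counts. Changes are those of log2(normalized count + 1), and the added 1 makes them too small for genes with few counts. All 9 genes passed the filter on low values, but Pou4f2 passed only through Dox libraries in which it was high.

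By line, the 9 genes moved to very different extents. In iAtoh1, 3 rose (Ntrk3, Ngfr and Prph) and 1 fell (Ret), where 2.89% of all tested genes rose and 2.52% fell. In iGfi1 0 members passed by limma, where 2.15% of tested genes rose and 2.67% fell, and 4 had an unadjusted p under 0.05. There Ngfr (log2 fold change 0.68, adjusted p = 0.032 by limma) and Ret (1.21, adjusted p = 0.00846) were below the fold threshold. In iPou4f3, 1 member rose (Pou4f1) and 0 fell, against 1.47% and 0.606% of tested genes. In iG+A, 5 rose (Pou4f1, Pou4f2, Ntrk3, Ngfr and Prph) and 1 fell (Ntrk2), against 7.35% and 4.95%. The iG+P line had 2 rises (Pou4f1 and Ntrk3) and 0 falls, against 5.16% and 5.36%. In iP+A, 5 rose (Pou4f1, Pou4f2, Ntrk2, Ntrk3 and Prph) and 0 fell, against 4.70% and 2.58%. In iGPA, 5 rose (Pou4f1, Pou4f2, Ntrk3, Ngfr and Prph) and 0 fell, against 8.65% and 5.31%. Of the counts of 0 falls, those in iG+P and iP+A had 1 member each with a lower value at an unadjusted p under 0.05, that in iGPA 2 and that in iPou4f3 0.

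**Figure D1:**
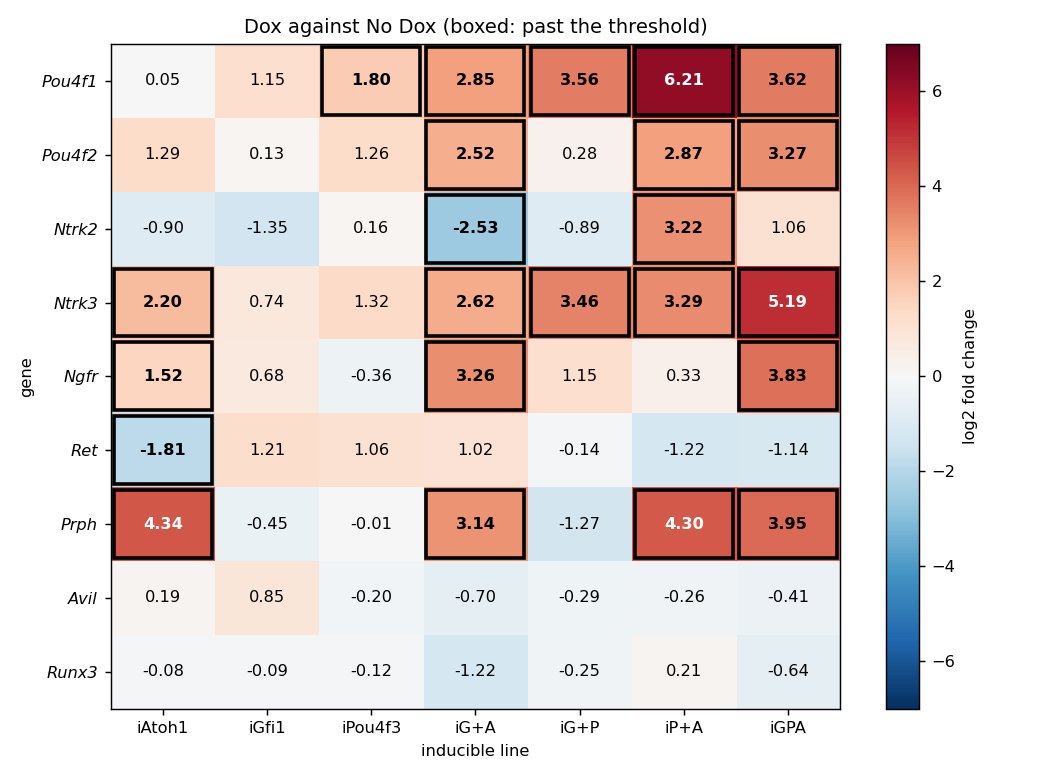
Log2 fold changes of the 9 genes with Dox against No Dox in each of the 7 lines (2 libraries per group, limma), with red for higher and blue for lower with Dox and a box around values past the threshold. Pou4f1 in iP+A reached 6.21 and Ntrk3 in iGPA 5.19, while Avil and Runx3 have no box in any line.

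The windows before the start sites of 3 of these genes are shown because they differ in E-boxes, the motif class that Atoh1 and other proteins of its family bind. RefSeq promoter windows (build GRCm38.p6) were matched for 7 of the 9 genes, Ntrk3 and Ret not among them. Each run is the 250 bases before a transcript start of that table, 5′ to 3′, with every CAGNTG (N for any base, read on both strands) in capitals. Of 32851 such windows in the RefSeq table, 44.8% hold the motif. The Pou4f1 window (chr14:104468000-104468249, minus strand) holds 2, which end 112 and 35 bases before the start, the Ngfr window (chr11:95587699-95587948, minus strand) holds 1, which ends 19 bases before it, and the Prph window (chr15:99054924-99055173, plus strand) holds 0. The RefSeq bounds of Pou4f1 and Prph reach upstream of the starts used, so their windows overlap the gene as RefSeq draws it.
Pou4f1: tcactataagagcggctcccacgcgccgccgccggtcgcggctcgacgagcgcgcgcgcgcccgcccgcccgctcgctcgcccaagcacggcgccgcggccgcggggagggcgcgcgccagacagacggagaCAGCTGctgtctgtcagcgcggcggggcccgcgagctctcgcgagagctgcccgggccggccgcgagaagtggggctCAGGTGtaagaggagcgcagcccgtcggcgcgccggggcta
Ngfr: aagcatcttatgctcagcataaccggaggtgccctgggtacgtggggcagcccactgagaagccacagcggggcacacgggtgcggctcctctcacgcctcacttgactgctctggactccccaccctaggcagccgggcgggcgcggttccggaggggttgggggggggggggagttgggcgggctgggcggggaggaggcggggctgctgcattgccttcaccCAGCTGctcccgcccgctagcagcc
Prph: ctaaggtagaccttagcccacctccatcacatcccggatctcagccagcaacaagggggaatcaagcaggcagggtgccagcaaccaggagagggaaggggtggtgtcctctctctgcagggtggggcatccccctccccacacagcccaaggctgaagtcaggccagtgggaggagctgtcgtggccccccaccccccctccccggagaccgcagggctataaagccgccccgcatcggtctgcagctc
Prph rose in every line that carries Atoh1 without holding these letters in its window, and a match is a description of the sequence only. The Ntrk2 window holds 1 CAGNTG, the Pou4f2 and Avil windows 0, and of the 2 Runx3 windows 1 holds 1.

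Pou4f1 (Entrez 18996; chr14:104862737-104867216 of NCBIM37, minus strand) had a low baseline. Its 14 No Dox libraries ran from 15.3 to 68.4 normalized counts, with a median of 33.8. With Dox, iAtoh1 held 68.5 and 34.1 and iGfi1 51.2 and 64.9, so that iAtoh1 overlapped its No Dox libraries (68.4 and 31.8) and iGfi1 (27.0 and 24.0) did not. The iPou4f3 libraries rose from 37.3 and 35.7 to 84.6 and 198.5.

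Lines with 2 or more TFs stood higher. Pou4f1 reached 221.2 and 323.4 in iG+A Dox (No Dox 32.5 and 40.4), 535.3 and 266.4 in iG+P Dox (27.6 and 35.1) and 547.2 and 448.9 in iGPA Dox (50.7 and 30.5). The iP+A libraries were far above all others, at 2346 and 1751.5 with Dox against 15.3 and 45.0 without. Of the 14 Dox libraries, 11 lay above all 14 untreated ones. Among Dox groups iP+A lay above iGPA without overlap, whereas iGPA, iG+P and iG+A overlapped their neighbours in the order of means (498.1, 400.8 and 272.3).

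The log2 fold change of Pou4f1 was 6.21 ± 0.50 (SE) in iP+A (adjusted p = 4.95e-08 by limma), a ratio of means of 68.0. It was 3.62 in iGPA (adjusted p = 1.18e-05), 3.56 in iG+P (2.33e-05) and 2.85 in iG+A (2.01e-04), each with an SE of 0.50. In iPou4f3 the rise of 1.80 was just past the threshold (adjusted p = 0.0463 by limma) and was lost in 7 of 15 alternatives. These included leaving out No Dox replicate 1 (1.83, adjusted p = 0.198), No Dox replicate 2 (1.77, 0.165) or Dox replicate 2 (1.19, 0.375). In iAtoh1 the value was 0.05 (adjusted p = 0.957).

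Pou4f3 shares some sequence with its relatives. Of 2571 distinct 31-base words in the Pou4f1 transcripts of the annotation, 11 also occur in Pou4f3, and of 3182 in Pou4f2, 5 do. In iG+A Dox, whose construct lacks Pou4f3, the Pou4f3 count was 42.4 and 50 and Pou4f1 was at 221.2 and 323.4. The iG+P Dox libraries had the highest Pou4f3 counts (17590.2 and 19882.8) and Pou4f2 at 1.97 and 0. Whether transgene reads were counted to Pou4f1 or Pou4f2 was not tested.

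Pou4f2 (Brn3b, Entrez 18997; chr8:80956908-80960551, minus strand), the related TF best known from retinal ganglion cells, stayed at a few counts. No Dox libraries held 0 to 4.01 normalized counts. With Dox it was at 12.8 and 15.9 in iG+A, 34.4 and 16.3 in iP+A and 25.6 and 18.2 in iGPA, each pair above all untreated libraries. The other Dox libraries lay between 0 and 10.0, with the higher values in iAtoh1 replicate 1 and in iPou4f3 replicate 2 (8.80).

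The rises of Pou4f2 on the log2 scale were 2.52 in iG+A (adjusted p = 0.0346 by limma), 2.87 in iP+A (0.0287) and 3.27 in iGPA (0.00711), with an SE of 0.92. The gene entered the fit only because it was high with Dox, so these values and its place in the counts of 5 rises are a description and no support. The iG+A and iP+A calls were lost with a pseudocount of 0.5 and when any 1 of their 4 libraries was left out (lowest values 2.23, adjusted p = 0.152, without iG+A No Dox replicate 1 and 2.35, adjusted p = 0.199, without iP+A Dox replicate 1), and the iGPA call was not lost in 14 alternatives.

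Runx3 (Entrez 12399; chr4:134676567-134733905, plus strand), a TF of proprioceptive neurons that is also used by lymphocytes, was past the threshold in no line. It lay between 180.7 and 346.6 without Dox and between 106.3 and 340.2 with it. In iG+A it was 106.3 and 147.5 with Dox against 331.4 and 257.4 without. That value (-1.22 ± 0.20, adjusted p = 9.48e-05 by limma) was below the fold threshold, and under quantile normalization (-1.54) it passed.

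**Figure D2:**
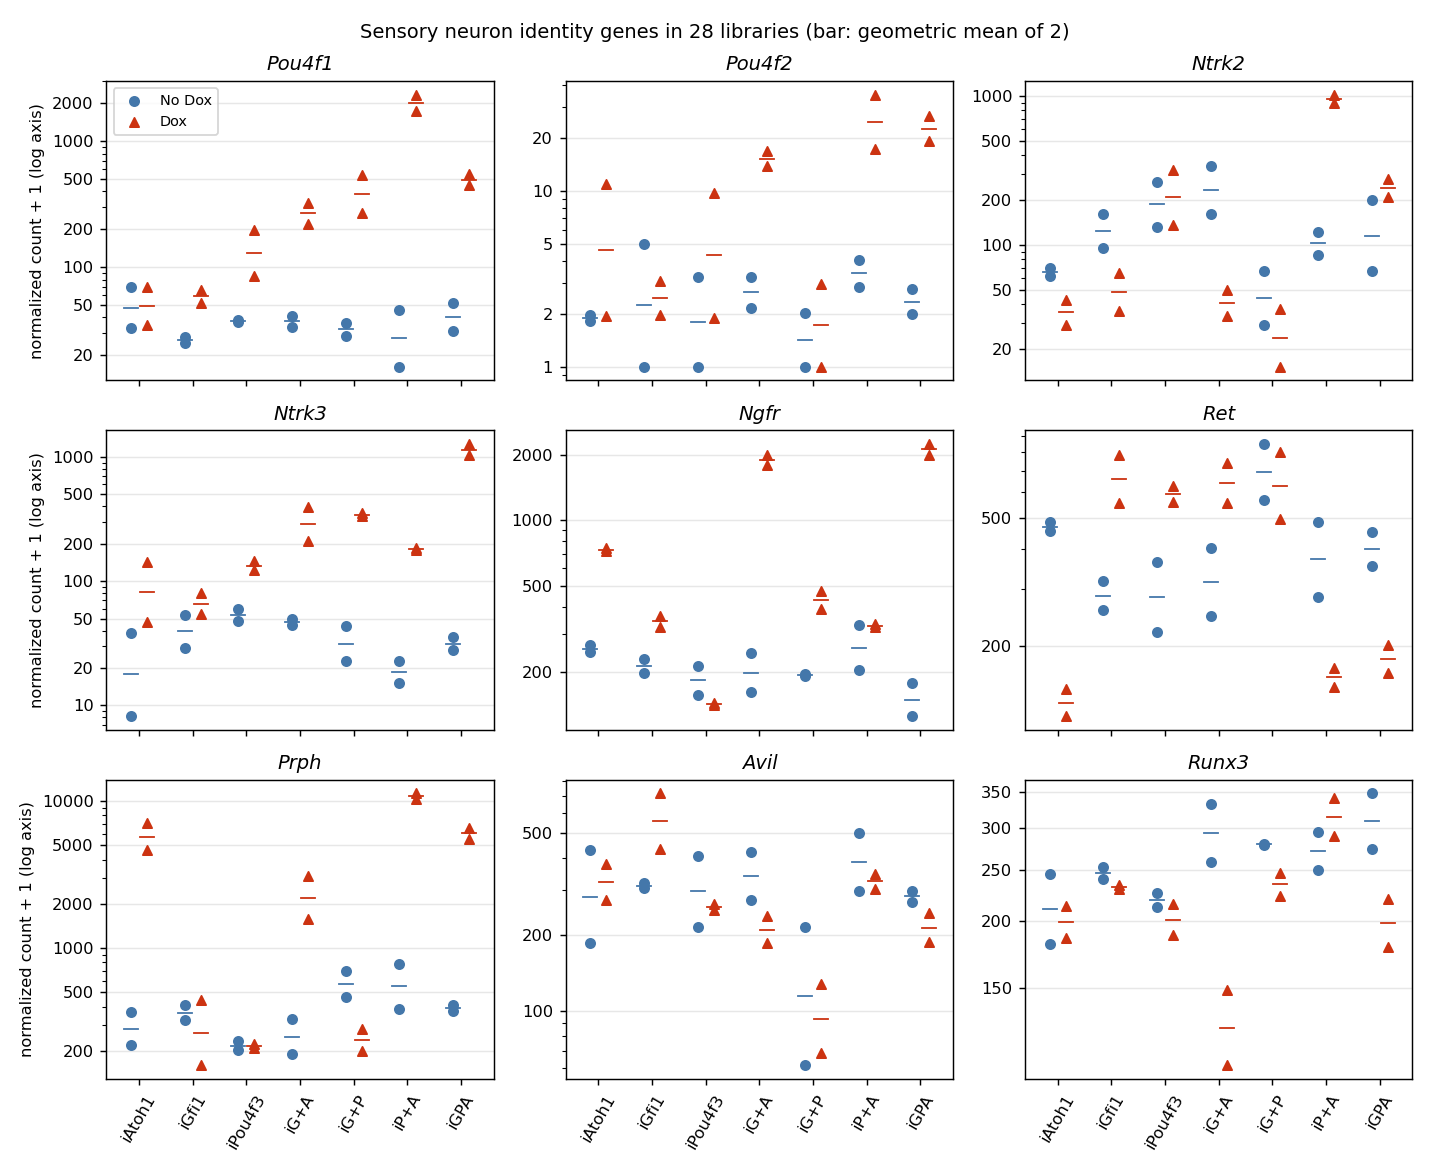
Normalized counts plus 1 (log axes, a scale for each gene) of the 9 genes in 28 libraries, with circles for No Dox, triangles for Dox and bars for the geometric mean of 2 libraries. The iP+A Dox triangles of Pou4f1 (2346 and 1751.5) and Ntrk2 (1020.1 and 890.8) stand above all other libraries, and those of Ngfr do so in iG+A and iGPA.

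The Trk receptors differed from line to line. Ntrk2 (Entrez 18212; chr13:58907957-59235331, plus strand) had an uneven baseline, with No Dox libraries from 28.1 to 339.4 and a median of 107.8. In iP+A it was 1020.1 and 890.8 with Dox against 84.4 and 121.5 without. In iG+A it was 48.8 and 32.4 with Dox against 339.4 and 161.2 without, so that the groups were apart in the other direction.

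In iGPA the 4 libraries held 277.1 and 208.2 with Dox and 65.5 and 199.5 without, and in iPou4f3 they overlapped (319.5 and 133.9 against 262.0 and 131.5). The remaining Dox pairs were 41.8 and 27.9 in iAtoh1, 64.0 and 35.0 in iGfi1 and 14.2 and 35.8 in iG+P. These last values were low, and iG+P overlapped its No Dox pair (28.1 and 65.3).

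Ntrk2 rose by 3.22 ± 0.59 on the log2 scale in iP+A (adjusted p = 5.4e-04 by limma) and was lower by a log2 fold change of -2.53 ± 0.59 in iG+A (0.00218). The iGPA value of 1.06 (adjusted p = 0.15) missed the threshold and passed it without No Dox replicate 2 (1.86, adjusted p = 0.0371). With all 14 untreated libraries as 1 control group, the iG+A fall was -1.42 (adjusted p = 0.0534) and no longer passed, and Ntrk2 passed downward in iAtoh1 (-1.63, adjusted p = 0.0391) and in iG+P (-2.21, 0.00417).

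Ntrk3 (Entrez 18213; chr7:85337248-85723294, minus strand) was the most widely raised of the receptors. Its No Dox libraries held 7.22 to 58.6 normalized counts. The iGPA Dox libraries reached 1268.4 and 1030.2 from 26.7 and 34.3, above all other Dox groups without overlap. Dox libraries of iG+P (352.8 and 332.2), iG+A (392.2 and 209.5) and iP+A (185.6 and 175.6) came next.

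The lowest Dox pairs of Ntrk3 were 122.1 and 143.2 in iPou4f3, 142.7 and 45.7 in iAtoh1 and 79.7 and 53.1 in iGfi1. Its log2 fold change was 5.19 ± 0.58 in iGPA (adjusted p = 8.89e-07 by limma), 3.46 in iG+P (1.28e-04), 3.29 in iP+A (3.74e-04), 2.62 in iG+A (0.00143) and 2.20 in iAtoh1 (0.0100). The iAtoh1 call rested on single libraries: without No Dox replicate 2 it was 1.08 (adjusted p = 0.193) and without Dox replicate 1 it was 1.39 (0.158). It was also lost in a fit of iAtoh1 alone (2.20, adjusted p = 0.208) and against 1 untreated group (1.37, 0.0427). In iPou4f3 the value was 1.32 (adjusted p = 0.231), and it passed against 1 untreated group (2.07, 0.0118).

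Ntrk2 and Ntrk3 share no 31-base word in their annotated transcripts. Both passed upward in iP+A, whereas in iG+A Ntrk3 rose and Ntrk2 fell.

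Ngfr (Entrez 18053; chr11:95430132-95449049, minus strand) encodes p75NTR, the low-affinity neurotrophin receptor, which neural crest and glial cells also carry. No Dox libraries held 124.1 to 327.4 normalized counts. Dox libraries held 2002.9 and 2244 in iGPA, 2003.6 and 1796 in iG+A and 722.3 and 741.4 in iAtoh1. The iGPA and iG+A pairs overlapped each other and lay above all others.

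By contrast, Ngfr in iP+A Dox, at 329.6 and 319.2, overlapped its No Dox pair (202.4 and 327.4). In iG+P Dox it was 471.9 and 389.1, in iGfi1 Dox 362.5 and 320.6 and in iPou4f3 Dox 139.7 and 142.9. The last pair was below its No Dox libraries (155.7 and 212.0).

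On the log2 scale Ngfr rose by 3.83 ± 0.22 in iGPA (adjusted p = 3.46e-10 by limma), 3.26 in iG+A (4.75e-09) and 1.52 in iAtoh1 (9.8e-05). The iAtoh1 value sat at the fold threshold and was lost under quantile normalization (1.49) and without No Dox replicate 2 (1.47, adjusted p = 0.00205). In iG+P it was 1.15 (adjusted p = 5.78e-04), below the fold threshold. The 12 neural crest and glial markers, among them Sox10, summed to 4532.4 to 4989.2 with Dox and 6842.5 to 8166.6 without in iGPA, and to 4432.1 to 4923.5 and 6306.1 to 6591 in iG+A, while in iAtoh1 they summed to 9137 to 10470.4 and 5732.9 to 8045.9; none was at 0 in both libraries of any group. In iGPA 3 of the 12 rose and 1 fell, in iG+A 2 and 1, and in iAtoh1 2 and 1, where 8.65% and 5.31%, 7.35% and 4.95%, and 2.89% and 2.52% of all tested genes did. Their part in the Ngfr values was not tested.

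Ret (Entrez 19713; chr6:118101766-118147762, minus strand), the receptor that signals for the GDNF family, split the lines another way. No Dox libraries ran from 219.9 to 846.1 normalized counts, with iG+P highest (846.1 and 568.1). With Dox it was 145.4 and 120.1 in iAtoh1 (No Dox 452.6 and 482.7), 170.3 and 148.1 in iP+A (483.1 and 283.3) and 163.9 and 199.9 in iGPA (450.9 and 353.8). All 6 of these Dox libraries lay below every untreated library.

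Ret was 784.0 and 555.8 in iGfi1 Dox (No Dox 317.5 and 257.1), 556.9 and 624.7 in iPou4f3 Dox (219.9 and 362.8) and 555.5 and 738.2 in iG+A Dox (247.1 and 401.0), each pair above its own No Dox libraries. In iG+P the pairs overlapped, at 797.3 and 495.5 with Dox against 846.1 and 568.1 without (log2 fold change -0.14, adjusted p = 0.773 by limma). Only the iAtoh1 value passed the threshold, at -1.81 ± 0.31 on the log2 scale (adjusted p = 4.27e-04 by limma). Below the fold threshold were iP+A (-1.22, adjusted p = 0.00821), iGPA (-1.14, 0.00626), iGfi1 (1.21, 0.00846) and iG+A (1.02, 0.0143). The iP+A value passed without No Dox replicate 2 (-1.60, adjusted p = 0.00486), and in iPou4f3 it was 1.06 (0.0613).

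Prph (Entrez 19132; chr15:98885605-98889409, plus strand) encodes peripherin, an intermediate filament of peripheral neurons. It was 189.5 to 784.8 normalized counts without Dox. The highest values were 11273.7 and 10357.2 in iP+A Dox, followed by 6547.2 and 5548.9 in iGPA Dox and 4619.2 and 7123.3 in iAtoh1 Dox, which overlapped. The iG+A Dox libraries were lower, at 3077.3 and 1575.3.

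All 8 Dox libraries with Atoh1 in the construct lay above every untreated library, and none of the other 6 did. Those 6 held 158.5 to 440.6. Prph rose by 4.34 ± 0.43 on the log2 scale in iAtoh1 (adjusted p = 1.6e-06 by limma), 4.30 in iP+A (7.8e-07), 3.95 in iGPA (7.53e-07) and 3.14 in iG+A (1.57e-05), and none of these calls was lost in 15 alternatives each. In iG+P it was 199.6 and 281.3 with Dox against 702.7 and 465.7 without (-1.27, adjusted p = 0.0295), which passed only without No Dox replicate 2 (-1.56, 0.0373), without Dox replicate 2 (-1.51, 0.046) and at a fold threshold of 1.

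Avil (Entrez 11567; chr10:126437765-126458050, plus strand) encodes advillin, an actin regulator of sensory neurons and tuft cells. It ran from 60.3 to 502.5 normalized counts without Dox and from 67.7 to 716.5 with it. The highest library was iGfi1 Dox replicate 2, and the lowest of both kinds were in iG+P. No line passed the threshold (log2 fold changes from -0.70 in iG+A to 0.85 in iGfi1), and 165 of its 3398 exonic bases overlap Tsfm on the other strand. Against 1 untreated group the iG+P value was -1.54 (adjusted p = 0.0079), where its own No Dox libraries (60.3 and 212.5) were also low.

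To ask which TF combination changes a gene more than another, Dox effects were compared between lines in the same limma fit, with the sort present in both effects. Adding Pou4f3 to Atoh1 (iP+A against iAtoh1) changed 2 of 9 members, against 2.78% of all tested genes. Pou4f1 was higher by 6.16 ± 0.71 on the log2 scale (adjusted p = 3e-05) and Ntrk2 by 4.12 ± 0.83 (0.00514). Ngfr was at -1.19 (adjusted p = 0.0337), below the fold threshold, and passed without iP+A No Dox replicate 1 (-1.53, 0.00815). Prph did not pass, with a difference of -0.04 ± 0.61.

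Adding Atoh1 to Pou4f3 (iP+A against iPou4f3) changed 3 members, against 1.61%. Pou4f1 differed by 4.41 ± 0.71 (adjusted p = 0.00124 by limma), Prph by 4.30 ± 0.61 (4.19e-04) and Ret by -2.27 ± 0.44 (0.00667). With the replicate number of each line as a block, Ntrk2 (3.07, adjusted p = 0.0525 without and 0.00624 with the block) and Ntrk3 (1.97, 0.25 without and 0.0301 with the block) passed as well. Ntrk2 also passed with a pseudocount of 5 (adjusted p = 0.0373), a filter of 50 (0.0497), quantile normalization (0.0408) and without iPou4f3 Dox replicate 1 (3.69, 0.0422). Ret was lost when only these lines were fitted (adjusted p = 0.0583). The Pou4f3 transcript itself was at 12877.8 and 10868.3 in iP+A Dox against 4693.6 and 5381.3 in iPou4f3 Dox, and the part of that gap in these differences was not tested.

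The effect of iP+A was also set against the sum of the iPou4f3 and iAtoh1 effects. Only Pou4f1 exceeded the sum, by 4.36 ± 0.87 on the log2 scale (adjusted p = 0.0253 by limma), where 0.422% of tested genes differed from it in either direction. That call was lost in 9 of 22 alternatives. They were the fit of these lines alone (adjusted p = 0.135) and leaving out iAtoh1 No Dox replicate 1 (3.82, 0.0891), iAtoh1 Dox replicate 2 (3.87, 0.0958), iPou4f3 No Dox replicate 1 (4.33, 0.0738) or 2 (4.39, 0.0556), iPou4f3 Dox replicate 1 (3.75, 0.0935), iP+A No Dox replicate 1 (3.61, 0.0719) or iP+A Dox replicate 1 (4.15, 0.104) or 2 (4.57, 0.0631). Ntrk2 stood at 3.97 ± 1.02 (adjusted p = 0.083) and passed with the replicate block (0.0152). Prph stood at -0.03 ± 0.75. The lower Pou4f3 level in iPou4f3 Dox than in iP+A Dox, given above, enters this sum too, and its part was not tested.

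Adding Gfi1 to Atoh1 (iG+A against iAtoh1) changed 3 members, against 6.87%. Ret differed by 2.84 ± 0.44 (adjusted p = 2.74e-04 by limma), Pou4f1 by 2.80 ± 0.71 (0.0117) and Ngfr by 1.74 ± 0.32 (0.00103). Pou4f1 was lost without iAtoh1 No Dox replicate 1 (2.26, adjusted p = 0.0652), without iAtoh1 Dox replicate 2 (2.31, 0.0596) and when only these lines were fitted (0.0539), and Ngfr without iG+A No Dox replicate 1 (1.45, 0.0085). Ntrk2 was at -1.62 (adjusted p = 0.206) and passed with the replicate block (0.0465).

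Adding Gfi1 to Pou4f3 (iG+P against iPou4f3) changed 1 member, against 7.63%. Ngfr differed by 1.51 ± 0.32 (adjusted p = 0.00282 by limma), at the edge of the fold threshold. It was lost in 6 of 18 alternatives, each time because the difference came out under the fold threshold, among them leaving out iPou4f3 No Dox replicate 2 (1.29), iG+P Dox replicate 1 (1.37), iPou4f3 Dox replicate 1 or iG+P No Dox replicate 1. Ntrk3 (2.14, adjusted p = 0.0785) passed with the replicate block (0.00602) and when only these lines were fitted (0.0200). Pou4f1 (1.76, adjusted p = 0.0988) passed without iPou4f3 Dox replicate 2 (2.37, 0.042), and Ret (-1.20, 0.0694) without iPou4f3 No Dox replicate 2 (-1.56, 0.034) or without iG+P Dox replicate 1 (-1.54, 0.0377). Here too Pou4f3 was lower in iPou4f3 Dox than in iG+P Dox (17590.2 and 19882.8).

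Adding Gfi1 to the Pou4f3 and Atoh1 pair (iGPA against iP+A) changed 2 members in opposite directions, against 7.60%. Ngfr was higher by 3.50 ± 0.32 on the log2 scale (adjusted p = 1.45e-06 by limma), and Pou4f1 was lower by a difference of -2.59 ± 0.71 (0.0164). The Pou4f1 call was lost without iP+A No Dox replicate 1 (-1.84, adjusted p = 0.085), iP+A Dox replicate 1 (-2.38, 0.0676), iGPA No Dox replicate 1 (-2.23, 0.0697) or iGPA Dox replicate 2 (-2.45, 0.0556). With the replicate block, Ntrk2 passed downward (-2.16, adjusted p = 0.0782 without and 0.0115 with it) and Ntrk3 upward (1.91, 0.113 and 0.0114), and Ntrk2 passed also without iGPA No Dox replicate 1 (-2.96, 0.027) and under quantile normalization (-2.52, 0.0387), and Ntrk3 when only these lines were fitted (0.0191).

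Adding Pou4f3 to the Gfi1 and Atoh1 pair (iGPA against iG+A) changed 2 members, against 2.20%. Ntrk2 differed by 3.59 ± 0.83 (adjusted p = 0.0172 by limma) and Ret by -2.16 ± 0.44 (0.00721). Ntrk2 was lost without iG+A No Dox replicate 1 (3.05, adjusted p = 0.0975), iG+A Dox replicate 2 (3.30, 0.0619), iGPA No Dox replicate 1 (2.79, 0.109) or iGPA Dox replicate 1 (3.38, 0.0693) and when only these lines were fitted (0.0832), and Ret without iG+A No Dox replicate 1 (-1.81, 0.0521). Ntrk3 (2.58, adjusted p = 0.0873) passed with the replicate block (0.0068) and when only these lines were fitted (0.0462).

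Adding Atoh1 to the Gfi1 and Pou4f3 pair (iGPA against iG+P) changed 2 members, against 5.90%. Prph differed by 5.21 ± 0.61 (adjusted p = 2.32e-05 by limma) and Ngfr by 2.68 ± 0.32 (2.63e-05). Ntrk2 (1.95, adjusted p = 0.125) and Ntrk3 (1.74, 0.166) passed with the replicate block (0.0211 and 0.0201), and Ntrk3 also when only these lines were fitted (0.0426). Pou4f2 (3.00, adjusted p = 0.133) passed with a pseudocount of 5 (1.96, 0.0387). Pou4f1 did not pass, at 0.06 ± 0.71.

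**Figure D3:**
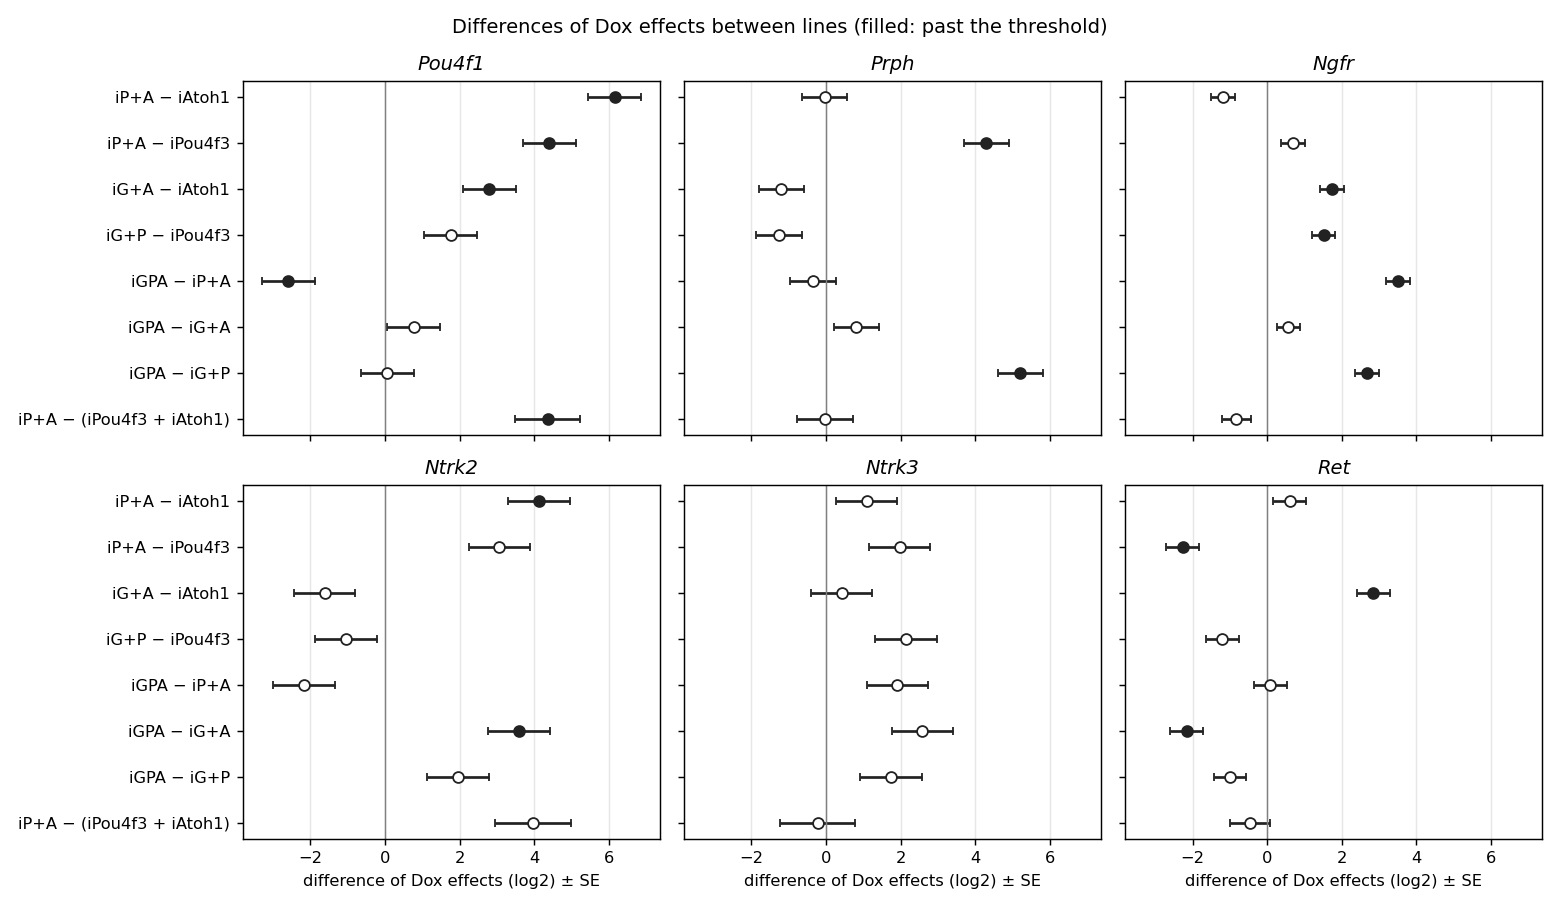
Differences of Dox effects between lines on the log2 scale (points, with bars of 1 SE) for 6 of the genes, with filled points past the threshold without a replicate block. Prph stands at 4.30 and 5.21 where Atoh1 was added, Ngfr at 3.50 in iGPA against iP+A, and Pou4f1 at -2.59 in the same comparison.

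Other TFs of sensory neurons were described from a list of 35 genes, of which 34 were tested. In iGPA 20 rose and 2 fell (median log2 fold change 2.03), where 8.65% and 5.31% of all tested genes did. In iP+A 18 rose and 0 fell (1.61), against 4.70% and 2.58%, and in iG+A 16 and 1 (1.52), against 7.35% and 4.95%. In iG+P 10 rose and 1 fell (0.74), against 5.16% and 5.36%, and in iAtoh1 9 and 1 (0.64), against 2.89% and 2.52%. In iGfi1 4 rose and 1 fell (0.15), against 2.15% and 2.67%, and in iPou4f3 4 and 0 (0.72), against 1.47% and 0.606%. Medians over all tested genes lay between -0.03 and 0.02.

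Prrxl1 (also Drgx), a homeodomain TF of pain circuits, rose in all 7 lines, from 2.66 on the log2 scale in iGfi1 to 8.99 in iGPA, where its Dox libraries held 2547 and 2602.6 normalized counts and its No Dox libraries 3.76 and 4.41. Ebf1, a TF of neuronal differentiation, rose in iP+A (5.62), iGPA (5.46), iPou4f3 (4.31), iG+A (2.56), iG+P (2.13) and iAtoh1 (1.77). Neurod1, another, rose in the lines that carry Atoh1 (iGPA 5.35, iP+A 4.69, iG+A 3.71 and iAtoh1 2.39), as did Onecut2 (iAtoh1 5.20, iP+A 4.92, iG+A 2.15 and iGPA 1.97). Tlx2 rose in iGPA (6.86), iG+A (6.76), iAtoh1 (5.46), iP+A (2.86) and iG+P (2.30). Phox2a, a TF of autonomic neurons, was past the threshold downward in iG+P (-3.73), iGPA (-3.32), iG+A (-2.86) and iGfi1 (-2.78), and Maf, a TF of touch neurons, in iGPA (-1.57).

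Ligands, receptors and adaptors of the neurotrophin and GDNF families were counted in the same way (25 tested, the 9 members left out). In iP+A 3 rose and 0 fell, where 4.70% and 2.58% of all tested genes did, and in iGPA 4 rose and 1 fell, against 8.65% and 5.31%, with medians of -0.05 and 0.10. Gfra3, the artemin coreceptor of Ret on pain neurons, rose in iAtoh1 (5.87), iP+A (4.22 ± 0.41 on the log2 scale, from 62.0 and 70.8 to 1407.3 and 1108.8 normalized counts) and iGPA (3.44). Gfra2, the neurturin coreceptor, rose in iG+A (3.54), iGPA (3.28), iAtoh1 (2.38) and iG+P (1.52), and was at 0.33 in iP+A. Gfra1, the GDNF coreceptor, rose in iG+A (2.83), iGPA (2.39), iG+P (2.24) and iGfi1 (1.56), and Gfra4 fell in iGPA (-3.04) and iG+A (-2.13). Bdnf, the ligand of Ntrk2, rose in iP+A (2.50 ± 0.35, from 22.9 and 29.4 to 153.5 and 149.3), iG+P (2.18) and iPou4f3 (1.54), and the adaptor Dok5 in iP+A (2.05).

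Among 39 tested effectors of pain, touch and position sense, 10 rose and 1 fell in iP+A, where 4.70% and 2.58% of all tested genes did, and 17 rose and 4 fell in iGPA, against 8.65% and 5.31%. Slc17a7, a vesicular glutamate transporter, rose in iGPA (5.50), iP+A (4.91), iAtoh1 (4.24) and iG+A (2.90). The neurofilament Nefl rose in iGPA (5.32), iP+A (3.96) and, at the edge of the fold threshold, iAtoh1, and Nefm in iGPA (5.29) and iP+A (2.30). The sodium channel Scn9a rose in iP+A (3.77 ± 1.20, adjusted p = 0.0274 by limma), and the opioid receptor Oprd1 in iP+A (3.48) and iAtoh1 (2.74). Sst (somatostatin) rose in iGPA (9.68), iG+A (9.31) and iG+P (3.25), and Spp1 rose in iG+A (2.47) and fell in iP+A (-2.43). Gap43, a growth cone protein, rose in iP+A (3.15) and fell in iG+A (-4.14), iG+P (-3.20), iGPA (-3.10) and iGfi1 (-2.59). Cacna2d1 fell in the same 4 lines (iGPA -2.99, iG+P -2.94, iG+A -2.62 and iGfi1 -2.61), and P2rx2 in iG+A (-2.41) and iGPA (-2.04).

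General neuronal genes were counted beside the members. Of 20, 16 rose in iP+A (median 3.32), 13 in iGPA (1.87), 7 in iG+A (0.69), 5 in iG+P (0.46), 4 in iAtoh1 (0.58), 3 in iPou4f3 (0.42) and 1 in iGfi1 (0.03), and 1 fell in each of iGPA and iG+P. The shares of all tested genes that rose were, in the same order of lines, 4.70%, 8.65%, 7.35%, 5.16%, 2.89%, 1.47% and 2.15%. In iGPA 5.31% and in iG+P 5.36% of all tested genes fell. Their summed level was 22851.1 to 31155.5 normalized counts in iP+A Dox, 10193.2 to 10660 in iGPA Dox and 1960.6 to 3100.8 in No Dox libraries. Of 17 hair cell genes tested, 9 rose in iGPA, 9 in iG+P, 8 in iG+A, 6 in iP+A, 6 in iPou4f3, 2 in iAtoh1 and 2 in iGfi1, against the same shares of rises by line. In iGfi1 1 fell, where 2.67% of all tested genes did. This list holds the transgenes Pou4f3 and Gfi1, so their rises in lines that carry them were set by the construct. They also rose in lines that lack them, such as Pou4f3 in iAtoh1 (2.21) and Gfi1 in iP+A (1.65). The part of neurons or hair cells in the members' values was not tested.

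**Figure D4:**
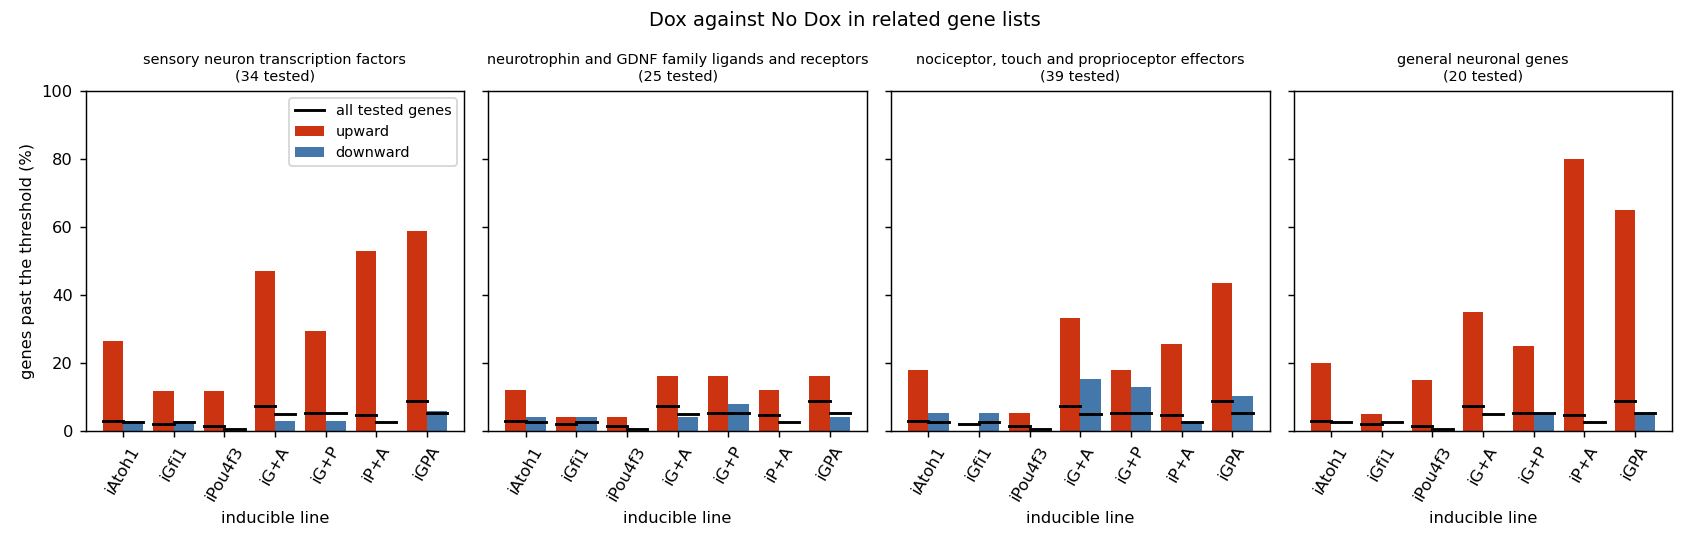
Share of each related gene list past the threshold with Dox in each line (bars, red upward and blue downward), with black lines at the share of all 16837 tested genes. Of the general neuronal genes 16 of 20 rose in iP+A, and of the sensory neuron TFs 20 of 34 rose in iGPA.

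Markers of other cell types were counted in the same way, beside shares of all tested genes that rose and fell of 2.89% and 2.52% in iAtoh1, 7.35% and 4.95% in iG+A, 4.70% and 2.58% in iP+A and 8.65% and 5.31% in iGPA. Of 14 blood and endothelial markers, 8 fell in iAtoh1, 5 in iG+A, 5 in iP+A and 5 in iGPA, and of 12 mesenchyme markers 9 fell in iGPA. Pluripotency markers fell in iP+A (6 of 10), iG+A (5) and iGPA (4). Retinal ganglion cell and motor neuron markers (8 tested) had 2 rises and 0 falls in iP+A and 3 rises and 2 falls in iGPA, where their sum was 4886.4 to 5710.6 normalized counts in Dox and 12496.2 to 16161.8 in No Dox libraries. Merkel and tuft cell markers (11 tested) had 3 rises and 2 falls in each of these lines, and in iGPA they summed to 12598.1 to 13585.2 in Dox and 25644.2 to 30127.6 in No Dox libraries. Dissociation stress genes had 0 rises in all 7 lines, where 1.47% to 8.65% of all tested genes rose, and 2 falls in iG+A. For a list this short 0 rises is near those shares, and an effect of the sort on these genes was not tested.

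Across the 28 libraries, the member pairs that ran most closely together were Pou4f1 with Ntrk3 (Pearson's r = 0.78 of the log2 values), Pou4f2 with Prph (0.74), Pou4f1 with Pou4f2 (0.72) and Ntrk3 with Ngfr (0.70), whereas Ret ran opposite to Prph (-0.64) and Ngfr opposite to Runx3 (-0.63). These are descriptions over libraries that share lines, clones and treatment. Ntrk2 had r = 0.31 with Pou4f1 and 0.12 with Ntrk3.

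Over the same 28 libraries the tested genes most like each member, members and transgenes left out, were Rtn4rl2 (0.932), Zmiz2 and Olfm2 (0.924 each) for Pou4f1 and Cd47 (0.948), Rbm5 and Crnde for Ntrk3. For Ngfr they were Aldh1b1 (0.970), Art5 and Slc35d3, and for Prph Prkcd (0.951), Rab15 and Sh3glb1. For Ntrk2 they were Slc5a12 (0.879) and Tox, and for Pou4f2 Map2 (0.862), Ptprr and Neurod1. Ret (Myc, 0.785, then Slc1a5 and Fam185a), Avil (Htr4, 0.858, then U90926 and Selplg) and Runx3 (Slc49a4, 0.760, then Phlpp2 and Mapk8ip2) had the less close matches. By Spearman's correlation the first match stayed the same for Ntrk3 only.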

How the data were processed

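RNA-seq was made from 28 libraries, with 1 µg of total RNA each and a kit for mRNA. Per the labels and the study's methods, the authors trimmed reads (cutadapt), assigned them to the mm9 transcripts of UCSC knownGene (kallisto), combined transcripts into genes (tximport) and scaled the counts (DESeq2); versions are not given in the sources used here. The deposited values are log2 of the normalized count plus 1 for 19421 genes by Entrez ID, which were returned to normalized counts. RefSeq named 19314 genes and left 107 unnamed, and NCBIM37 (mm9) gave positions.

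Of the values no larger than 20, 72.4% to 79.6% per library came within 0.05 of a multiple of the worth of 1 read, so whole reads were not recovered and no count test was run. A gene entered the fit when 2 or more libraries had 10 or more normalized counts (16837 genes), and these were fitted with limma 3.58.1 in R 4.3.3 over all 14 groups, with a pseudocount of 1, a variance trend, 14 residual degrees of freedom, and p-values adjusted by Benjamini-Hochberg for each contrast separately. The fit was tested on simulated data. Depth sets the precision only through the spread between 2 libraries, and counting error is large for genes near 10 counts.

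Replicate numbers mark clones per the series record, though equal numbers in Dox and No Dox were not stated to be the same clone. Libraries of equal number deviated together, with correlations of 0.246 (iP+A), 0.238 (iAtoh1), 0.231 (iPou4f3), 0.158 (iG+A), 0.152 (iGPA), 0.127 (iGfi1) and 0.103 (iG+P) over genes, so the numbers were taken to pair libraries, and a fit with the replicate block (7 residual degrees of freedom) was an alternative.

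The members and the lists were chosen with earlier results of these data known. Named genes are the 9 members, the transgenes, the 4 largest rises and 3 largest falls past the threshold, with both replicates moving the same way, of 3 related lists in iP+A and in iGPA, and the 3 genes most like each member; some items that this rule named are not reported here. Each alternative changed 1 choice: the pseudocount (0.5 or 5), the filter (none or 50), quantile or 75th percentile scaling, the block, only the lines compared, 1 untreated group, no trend, a log2 threshold of 1, and each library left out.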

Additional observations from a re-analysis of the deposited data

Results flagged for a closer look

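In 15 cases the Dox effect on a member differed between a pair of lines by limma's test of the difference itself (adjusted p under 0.05 over all tested genes and a difference of at least 1.5 on the log2 scale), and the differences share lines, so they are not independent of each other. By comparison, 1.61% to 7.63% of all tested genes differed between the same pairs of lines. Several of the 15 were lost in part of the alternatives, as given with each comparison above.

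For Pou4f1 the Dox effect in iP+A exceeded that in iAtoh1 by 6.16 and that in iPou4f3 by 4.41, the effect in iG+A exceeded that in iAtoh1 by 2.80, and the effect in iGPA minus that in iP+A was -2.59. Ntrk2 differed by 4.12 between iP+A and iAtoh1 and by 3.59 between iGPA and iG+A.

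Ngfr differed by 1.74 between iG+A and iAtoh1, by 1.51 between iG+P and iPou4f3, by 3.50 between iGPA and iP+A and by 2.68 between iGPA and iG+P. Prph differed by 4.30 between iP+A and iPou4f3 and by 5.21 between iGPA and iG+P.

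Ret had differences of both signs, with 2.84 for iG+A minus iAtoh1, -2.27 for iP+A minus iPou4f3 and -2.16 for iGPA minus iG+A.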

How the results depend on the processing

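Over single members, 2165 of 2262 recomputed values kept their side of the threshold, 54 lost a call and 43 gained one. Most of the 2262 belong to members not past the threshold in that comparison, which have no call to lose. The 54 losses are therefore a larger share of the recomputed calls than of the 2262. Of the 2165, 82 were uncalled values that changed sign, and 0 calls reversed. The filter of 50 dropped Pou4f2, so it gave no value there, and 1 untreated group was run only for Dox against No Dox. The replicate block changed 10 calls, all of them gains of Ntrk2 or Ntrk3 in differences between lines, and no other call; it made the upward counts 4 for iP+A minus iPou4f3, 2 for iG+P minus iPou4f3, 2 for iGPA minus iP+A, 2 for iGPA minus iG+A, 4 for iGPA minus iG+P and 2 beyond the sum, and the downward counts 1 for iG+A minus iAtoh1 and 2 for iGPA minus iP+A. With quantile normalization the counts were 2 downward in iG+A, 0 upward for iG+P minus iPou4f3 (also 0 with a pseudocount of 5) and 2 downward for iGPA minus iP+A. The rise in iPou4f3 went to 0 with no filter, 75th percentile scaling, no trend and only that line fitted. Fitting only the lines compared gave 0 downward for iP+A minus iPou4f3, 2 upward for iG+P minus iPou4f3, 2 upward for iGPA minus iP+A and 0 beyond the sum. Smaller relative changes of a count are left out of this section. Examples are the loss of Ntrk3 from the iAtoh1 rises with only that line fitted and of Pou4f2 from the iG+A and iP+A rises with a pseudocount of 0.5. Against 1 untreated group the counts were 2 downward in iAtoh1, 2 upward in iPou4f3, 0 downward in iG+A and 2 downward in iG+P. At a log2 threshold of 1 they were 1 upward in iGfi1, 2 downward in iG+A, 1 downward in each of iG+P, iP+A and iGPA, and 1 downward for iP+A minus iAtoh1 and for iG+A minus iAtoh1.

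With 1 library left out, where the lone library of a group is taken to vary like the others, the counts ran from 1 to 3 upward in iAtoh1, 0 to 1 upward in iPou4f3, 0 to 1 downward in iG+P and in iP+A, 0 to 1 downward for iP+A minus iAtoh1, 0 to 2 upward and 0 to 1 downward for iG+P minus iPou4f3, 0 to 1 downward for iGPA minus iP+A, 0 to 1 in each direction for iGPA minus iG+A, and 0 to 1 beyond the sum; the cause was not tested. Over all genes, quantile normalization moved iGPA minus iP+A from 802 higher and 478 lower to 635 and 599, and iPou4f3 fitted alone had 117 rises and 18 falls against 248 and 102. Quantile normalization moved the median log2 fold change of all genes from 0.01 to -0.07 in iGPA and from 0.03 to -0.05 for iGPA minus iG+P, and the other medians moved less under both scalings. Depth limits Pou4f2, at 0 to 34.4 normalized counts, the most.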
